A study of Mus musculus with 4 samples.

Results

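The genes described here are 10 genes of natural killer (NK) cells and cytotoxic lymphocytes, taken by name from a table of 55401 genes: *Ncr1*, *Klrb1c*, *Klrk1*, *Klrd1*, *Nkg7*, *Gzma*, *Gzmb*, *Prf1*, *Eomes*, and *Ccnd2*. Each of the 10 names occurred once in the table, and all 10 genes had reads in every library and passed the filter on low counts. RNA was sequenced from leukocytes (CD45+ cells) that had been sorted from the dura mater, the outer layer of the meninges, of wild-type C57BL/6J male mice. The mice had received 2 μl of an AAV9 vector into the cisterna magna at 4 wk of age. The vector AAV-mVEGF-C encodes the full-length form of mouse VEGF-C, a growth factor for lymphatic vessels. AAV-CTRL, the control vector, encodes a soluble piece of VEGFR-3 fused to an immunoglobulin tail that does not bind VEGF-C, so that both groups carried a vector with a secreted protein. Each group had 2 libraries, and the study's methods give 10 to 12 mice for each group treated with a vector in the isolation of dural cells. Values for single mice are not given. The titles number the libraries as experiments, and the p-values measure the spread between these libraries. The labels do not say how long after the injection these cells were taken.

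NK cells and cytotoxic T cells kill target cells by releasing granules that hold perforin, which makes pores in membranes, and granzymes, proteases that enter the target and start its death. NK cells decide whether to kill by weighing signals from activating and inhibitory receptors on their surface, many of which are encoded side by side in the NK gene complex. The dura holds resident NK cells and other innate lymphocytes in addition to T cells, B cells, mast cells, and myeloid cells. The RNA came from a mixture of cells, so that fewer cytotoxic cells and less RNA of a gene in each cell cannot be told apart.

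The libraries had 32520709 to 46409700 reads assigned to genes. AAV-CTRL 1, the deepest, stood apart from the rest, with 20990 genes detected against 29221 to 37512 in the others and a correlation of 0.967 to 0.973 with them across genes, where the others had 0.981 to 0.988 among themselves. *Ptprc*, which encodes CD45, was at 945 to 1150 CPM (read counts scaled to a common library size) in the 4 libraries, with overlapping groups. The defining markers of T cells (*Cd3e*) and macrophages (*Csf1r*) and those of NK cells given next were present in each library.

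Levels differed more between the members than between the groups. Compared per gene length as TPM (scaled for gene length and library size), the mean over the 4 libraries ran from 2.34 for *Eomes* to 28.9 for *Ccnd2*. *Nkg7* followed at 19.4 TPM, *Klrk1* at 18.7, *Gzma* at 16.9, and *Klrd1* at 13.6. Lower levels were seen for *Gzmb* at 8.997 TPM, *Ncr1* at 8.01, *Klrb1c* at 5.80, and *Prf1* at 4.02. *Nkg7* and *Klrk1* do not differ beyond their spread, since *Nkg7* ranged from 18.8 to 20.6 TPM and *Klrk1* from 15.8 to 21.6. *Gzma*, from 9.25 to 23.8 TPM, and *Klrd1*, from 8.75 to 23.7, overlapped with both of them. The order by the mean did not hold in every library, since *Ccnd2*, at 20.7 TPM in AAV-CTRL 1, was below *Gzma*, *Klrd1*, and *Klrk1* there. In AAV-CTRL 2, *Gzmb* at 11.9 TPM and *Ncr1* at 11.7 were above *Klrd1* at 10.97. *Gzmb* was above *Prf1* in every library, at a TPM ratio of 2.45 and 2.21 in the controls and of 1.95 and 2.29 under AAV-mVEGF-C. *Gzma* was above *Gzmb* in every library, with ratios of 2.47, 1.58, 1.59, and 1.83 in the same order.

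Between the groups, the granzymes, perforin, and *Ncr1* were lower in both AAV-mVEGF-C libraries than in both AAV-CTRL libraries, as were 15.2% of all tested genes, and *Klrk1* and *Nkg7* were nearly level in CPM. No member passed the test. In edgeR's quasi-likelihood test over 19806 genes, 0% of genes had an adjusted p under 0.05, and the adjusted p of the members was 0.999 for each. Of the tested genes, 1.46% were higher and 1.18% were lower at an unadjusted p under 0.05, and 0 of the 10 members were among them. DESeq2, the tool that the study names, called 0.378% of genes at an adjusted p under 0.05 and 0 members. In log2 fold change, 7 of the 10 members were below 0, against 49.6% of all tested genes, with a median of −0.35 over the members and 0.0034 over all genes. The median depended on single libraries. It was −0.15 without AAV-CTRL 1, −0.25 without AAV-CTRL 2, −0.15 without AAV-mVEGF-C 1, and −0.45 without AAV-mVEGF-C 2.

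**Figure D1:**
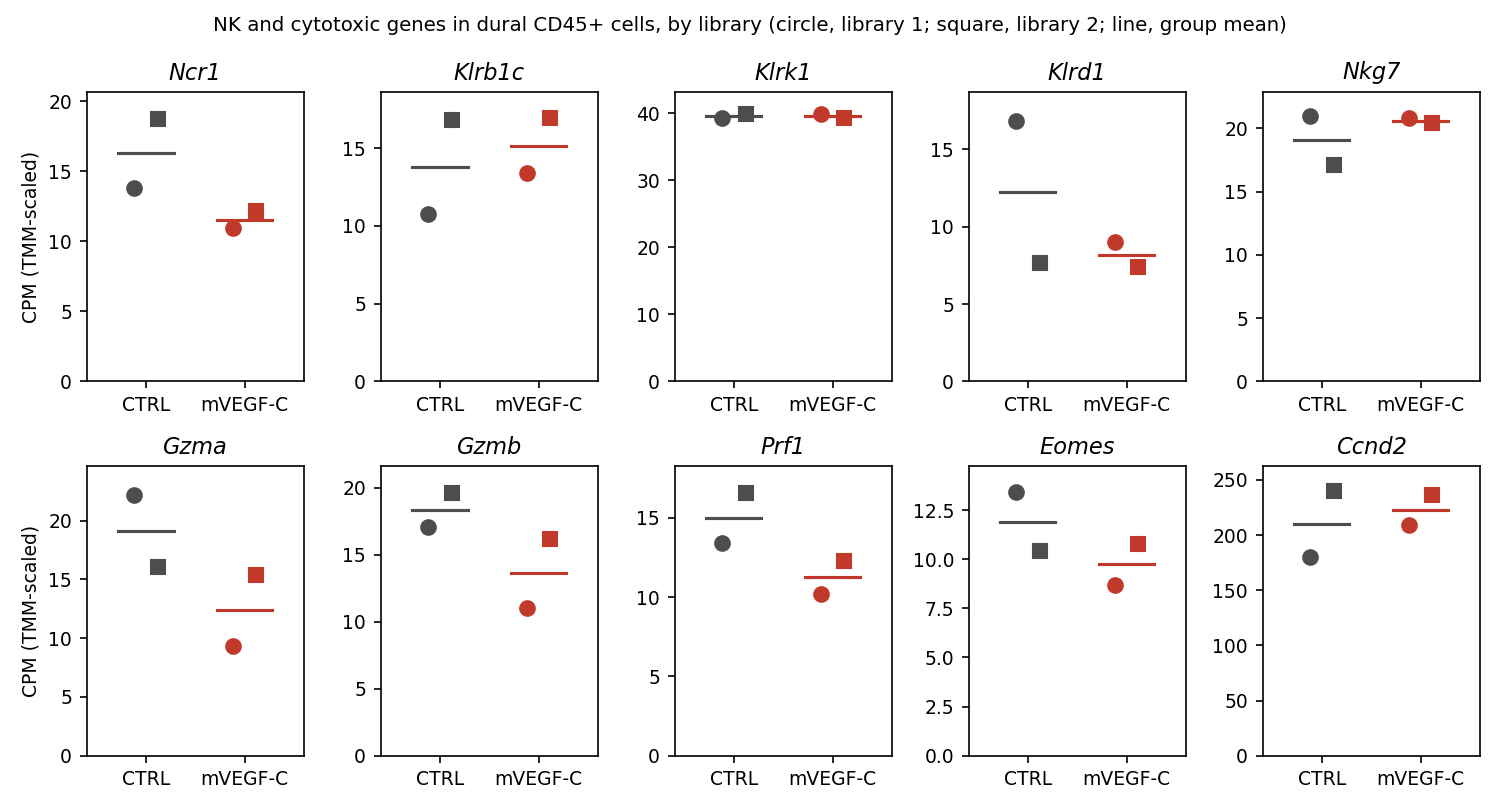
CPM of each of the 10 genes (y axis, from 0, scaled with TMM) in the AAV-CTRL (gray) and AAV-mVEGF-C (red) libraries; circles are library 1, squares library 2, and lines group means. *Ncr1*, *Gzma*, *Gzmb*, and *Prf1* are lower in both AAV-mVEGF-C libraries than in both controls, and the 4 points of *Klrk1* lie between 39.3 and 39.9.

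Of the surface receptors, *Ncr1* encodes NKp46, an activating receptor that marks NK cells and some other innate lymphocytes (ENSMUSG00000062524.4, GRCm38 chromosome 7, 4337724 to 4345164, plus strand). *Ncr1* had 13.8 and 18.7 CPM in the AAV-CTRL libraries 1 and 2 and 10.97 and 12.1 CPM in the AAV-mVEGF-C libraries 1 and 2. Both AAV-mVEGF-C libraries were below both controls, which differed from each other more than the AAV-mVEGF-C libraries did. The log2 fold change was −0.49 (standard error 0.25; unadjusted p = 0.0908 from edgeR), and its 95% interval ran from −1.10 to 0.11. It stayed below 0 with any 1 library left out, from −0.71 to −0.25.

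*Klrd1* encodes CD94, which pairs with NKG2 proteins to read the nonclassical MHC molecule Qa-1 (ENSMUSG00000030165.16, chromosome 6, 129591782 to 129598775, plus strand). It was at 16.8 and 7.67 CPM in the controls and at 9.02 and 7.37 CPM under AAV-mVEGF-C. Only AAV-CTRL 1 was high, 2.20 times AAV-CTRL 2, and the groups overlapped. Its log2 fold change was −0.58 (standard error 0.41; unadjusted p = 0.204 from edgeR). It was 0.080 without AAV-CTRL 1 and −1.03 without AAV-CTRL 2, in fits whose lone control is assumed to vary like the other group. In these fits on counts, AAV-CTRL 1 alone set its direction. In TPM, *Klrd1* was at 23.7 and 10.97 in the controls and 10.88 and 8.75 under AAV-mVEGF-C, without overlap. Its log2 fold change on log2(TPM + 1) was −0.68. The partner gene *Klrc1*, which encodes NKG2A, was at 10.3 and 11.3 CPM in the controls and 8.85 and 10.9 CPM under AAV-mVEGF-C, without the excess of AAV-CTRL 1. The TPM ratio of *Klrd1* to *Klrc1* was 2.41 in AAV-CTRL 1 and from 0.910 to 1.29 in the other libraries. *Klrc1* was singled out as the partner after its values had been seen.

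*Klrk1* encodes NKG2D, an activating receptor for stress-induced ligands that NK cells and activated CD8+ T cells carry (ENSMUSG00000030149.15, chromosome 6, 129610323 to 129623864, minus strand). It was at 39.3 and 39.9 CPM in the controls and 39.8 and 39.3 CPM under AAV-mVEGF-C. The spread within each group was larger than the difference between the groups. The fitted log2 fold change was −0.0022 (standard error 0.16; unadjusted p = 0.989 from edgeR), with a 95% interval from −0.39 to 0.38. In TPM, *Klrk1* was at 21.6 and 19.6 in the controls and 15.8 and 17.9 under AAV-mVEGF-C, without overlap, and its log2 fold change on log2(TPM + 1) was −0.28 (adjusted p = 0.837 from limma), so that it was level on one scale only. *Klrb1c*, which encodes NK1.1, the classical NK marker of this mouse strain (ENSMUSG00000030325.16, chromosome 6, 128778485 to 128789215, minus strand), was at 10.7 and 16.8 CPM in the controls and 13.4 and 16.9 CPM under AAV-mVEGF-C. The groups overlapped. Its log2 fold change of 0.14 (95% interval, −0.57 to 0.85) was −0.17 without AAV-CTRL 1 and −0.034 without AAV-mVEGF-C 2. Summed over the 4 receptors, CPM was 81.9 ± 1.72 (SD, n = 2) in AAV-CTRL and 74.4 ± 1.76 in AAV-mVEGF-C, a log2 ratio of −0.14. Their summed TPM was 53.95 ± 4.89 and 38.3 ± 1.89, a log2 ratio of −0.50, so that the size of the difference depended on the scale.

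Of the granule genes, *Gzma* encodes granzyme A (ENSMUSG00000023132.8, chromosome 13, 113093825 to 113100981, minus strand). It was at 22.2 and 16.1 CPM in the controls and at 9.33 and 15.4 CPM under AAV-mVEGF-C. AAV-mVEGF-C 1 was the low library, and AAV-mVEGF-C 2 lay just under AAV-CTRL 2. The log2 fold change was −0.63, the largest in size among the 10 members (standard error 0.32; unadjusted p = 0.0929 from edgeR), with a 95% interval from −1.40 to 0.14. It was −0.30 without AAV-mVEGF-C 1 and −1.03 without AAV-mVEGF-C 2. *Gzmb* encodes granzyme B (ENSMUSG00000015437.5, chromosome 14, 56258838 to 56262260, minus strand) and was at 17.1 and 19.6 CPM in the controls and 11.02 and 16.2 CPM under AAV-mVEGF-C. Its groups did not overlap either. Its log2 fold change was −0.43 (standard error 0.26; unadjusted p = 0.148 from edgeR), and it was −0.17 without AAV-mVEGF-C 1 and −0.73 without AAV-mVEGF-C 2.

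*Prf1* encodes perforin (ENSMUSG00000037202.6, chromosome 10, 61297833 to 61304680, plus strand). It was at 13.4 and 16.6 CPM in the controls and 10.2 and 12.3 CPM under AAV-mVEGF-C, with no overlap. The fitted log2 fold change was −0.41 (standard error 0.24; unadjusted p = 0.137 from edgeR), and it ranged from −0.58 to −0.24 with 1 library left out. *Nkg7* encodes a membrane protein of cytotoxic granules that takes part in their release (ENSMUSG00000004612.9, chromosome 7, 43437073 to 43438249, plus strand). It was at 20.97 and 17.1 CPM in the controls and 20.8 and 20.4 CPM under AAV-mVEGF-C. The AAV-mVEGF-C libraries lay within the range of the controls, and the log2 fold change was 0.11 (95% interval, −0.37 to 0.60). It was −0.017 without AAV-CTRL 2.

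*Eomes* encodes a T-box transcription factor of mature NK cells and memory CD8+ T cells (ENSMUSG00000032446.14, chromosome 9, 118478212 to 118486132, plus strand). It was at 13.4 and 10.4 CPM in the controls and 8.69 and 10.8 CPM under AAV-mVEGF-C. The groups overlapped by the second library of each, and the log2 fold change was −0.29 (95% interval, −0.94 to 0.36). It was −0.12 without AAV-CTRL 1, −0.14 without AAV-mVEGF-C 1, and −0.45 without either of the other libraries. *Ccnd2* encodes cyclin D2, which drives cells into the cell cycle and is not restricted to cytotoxic cells (ENSMUSG00000000184.12, chromosome 6, 127125162 to 127152193, minus strand). It was at 180 and 240.0 CPM in the controls and 209 and 237 CPM under AAV-mVEGF-C, the most reads of any member, and AAV-CTRL 1 was the low library. The log2 fold change was 0.085 (95% interval, −0.39 to 0.56), and it was −0.12 without AAV-CTRL 1.

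**Figure D2:**
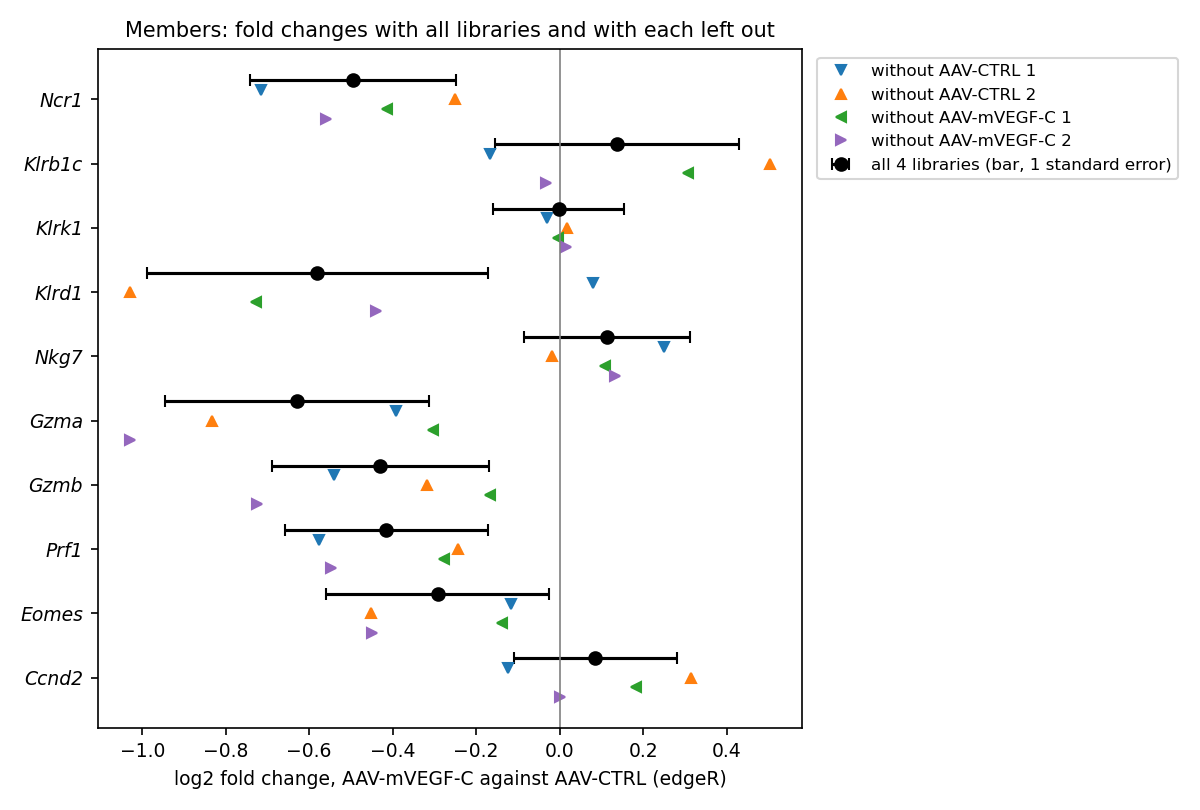
Log2 fold change of each of the 10 genes, AAV-mVEGF-C against AAV-CTRL, from edgeR with all 4 libraries (black, with 1 standard error) and with each library left out (colored triangles). *Ncr1*, *Gzma*, *Gzmb*, *Prf1*, and *Eomes* stay left of 0 in all 5 fits, and *Klrd1* runs from −1.03 to 0.080.

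In CPM, 4 of the 10 members were lower in both AAV-mVEGF-C libraries than in both controls, and 0 were higher, against 15.2% and 16.8% of all tested genes. In TPM, 8 members were lower without overlap and 0 higher, against 28.5% and 8.92% of all tested genes. On the TPM scale the median of all genes was itself below 0, at −0.078 on log2(TPM + 1). Summed over the 9 members other than *Ccnd2*, CPM was 168 and 163 in the controls and 133 and 151 under AAV-mVEGF-C, a ratio of 1.16 between the group means. With *Ccnd2*, the sums were 348 and 403 in the controls and 342 and 387 under AAV-mVEGF-C. *Ccnd2*, which was lowest in AAV-CTRL 1, made the control sums differ more from each other than the groups did. The granule genes summed to 71.4 ± 3.03 CPM (SD, n = 2) in AAV-CTRL and 57.8 ± 9.17 in AAV-mVEGF-C, a log2 ratio of −0.31, which was −0.44 in TPM. For the 9 members the log2 ratio was −0.22 in CPM and −0.46 in TPM.

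Most of the members with a promoter sequence held the same short run of letters ahead of their transcription start. Of the 10 members, 8 were matched by symbol to the promoter sequences of RefSeq on GRCm38.p6, and *Klrd1* and *Ccnd2* were not. Of a pair of windows listed for *Ncr1*, the first was used. In the 250 bases before the start, the letters TGTGGT or, on the other strand, ACCACA, the core that RUNX transcription factors bind, were found in 7 of the 8, all but *Eomes*. They were found before 15.9% of 27025 genes. The letters TCACAC or GTGTGA, part of the element that T-box factors such as EOMES bind, were found in 3 of the 8 (*Ncr1*, *Nkg7*, and *Gzmb*), against 13.9% of genes. The letters GGAAGT or ACTTCC, a core of ETS factors, were found in 2 (*Klrb1c* and *Prf1*), against 22.2%. None of these matches overlapped with another. The letters of the motifs were chosen after the promoters had been seen. A match is a run of letters and does not show that a factor binds there.

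The promoters of the 4 genes that were lower without overlap in CPM are shown with that of *Nkg7*, which was lower without overlap in TPM but not in CPM and also holds the RUNX letters. Each is given 5′ to 3′ on the strand of its gene, ending at the base before the RefSeq start, and capitals mark the RUNX letters on either strand. The RefSeq start differs from the GENCODE start for some genes. The ends of the *Nkg7* and *Prf1* windows therefore lie inside the genes as given above, as does the whole *Klrb1c* window, not shown. The windows lie at chr7:4337465-4337714 (plus strand) for *Ncr1*, chr13:113100982-113101231 (minus) for *Gzma*, chr14:56262335-56262584 (minus) for *Gzmb*, chr10:61297586-61297835 (plus) for *Prf1*, and chr7:43436888-43437137 (plus) for *Nkg7*.
Ncr1: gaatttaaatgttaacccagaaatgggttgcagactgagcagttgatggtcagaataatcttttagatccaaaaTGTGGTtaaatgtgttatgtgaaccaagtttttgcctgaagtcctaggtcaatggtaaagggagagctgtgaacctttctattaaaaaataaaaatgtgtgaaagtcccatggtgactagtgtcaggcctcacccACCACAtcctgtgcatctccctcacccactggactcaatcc
Gzma: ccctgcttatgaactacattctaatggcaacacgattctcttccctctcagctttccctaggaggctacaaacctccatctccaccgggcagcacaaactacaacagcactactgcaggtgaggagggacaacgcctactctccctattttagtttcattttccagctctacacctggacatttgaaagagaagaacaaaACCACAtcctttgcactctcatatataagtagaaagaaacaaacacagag
Gzmb: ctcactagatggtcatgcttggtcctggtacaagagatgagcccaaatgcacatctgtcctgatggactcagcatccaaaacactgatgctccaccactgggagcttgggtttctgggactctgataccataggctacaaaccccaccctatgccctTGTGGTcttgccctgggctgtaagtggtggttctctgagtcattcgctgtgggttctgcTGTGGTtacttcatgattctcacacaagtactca
Prf1: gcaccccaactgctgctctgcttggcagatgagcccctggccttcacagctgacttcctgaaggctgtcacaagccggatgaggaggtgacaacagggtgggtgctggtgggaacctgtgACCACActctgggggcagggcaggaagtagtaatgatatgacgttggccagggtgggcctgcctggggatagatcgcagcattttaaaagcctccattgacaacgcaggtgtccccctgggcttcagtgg
Nkg7: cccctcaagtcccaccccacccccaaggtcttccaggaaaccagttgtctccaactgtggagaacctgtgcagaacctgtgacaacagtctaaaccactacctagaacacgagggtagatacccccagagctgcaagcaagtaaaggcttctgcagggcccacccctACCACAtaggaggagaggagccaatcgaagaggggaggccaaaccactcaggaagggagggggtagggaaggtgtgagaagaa

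In *Ncr1* and *Gzmb* the letters occurred at 2 places each, and the nearest match began 41 bases before the start of *Ncr1*, 50 before that of *Gzma*, and 34 before that of *Gzmb*. It began 130 bases before *Prf1*, 83 before *Nkg7*, 89 before *Klrb1c*, and 129 before *Klrk1*. Genes that were lower in CPM without overlap and genes that were not both held the letters.

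**Figure D3:**
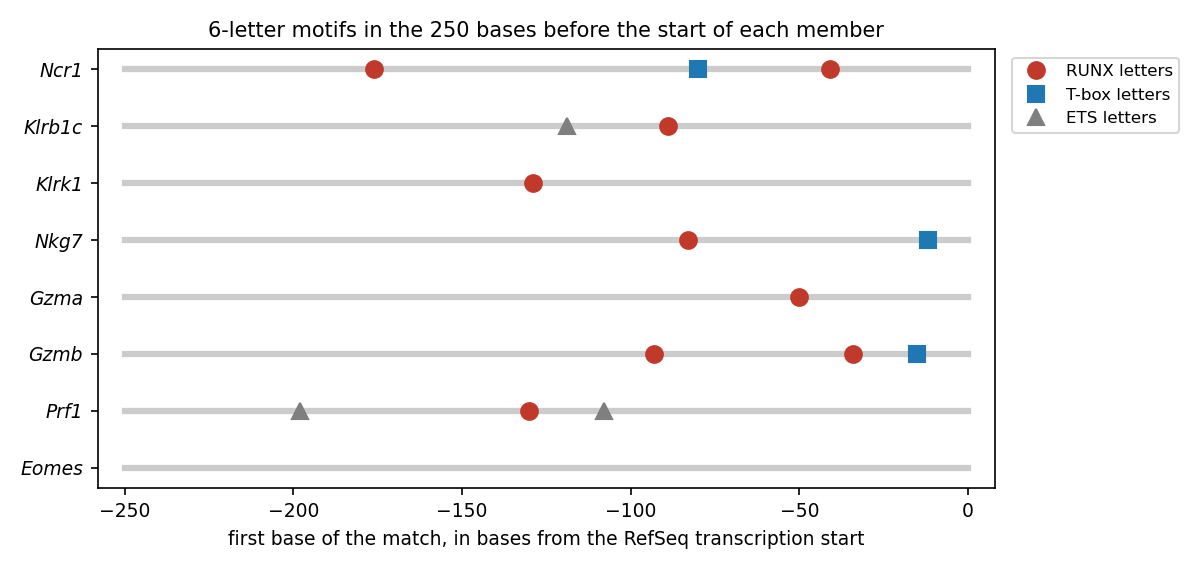
Position of the first base of each match to the RUNX (red circles), T-box (blue squares), and ETS (gray triangles) letters in the 250 bases before the transcription start of the 8 members with a RefSeq promoter. The RUNX letters are in 7 of the 8, and *Eomes* has no match to any of the 3.

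The other genes of the cytotoxic program did not show one direction. Of 26 other NK receptor genes, 15 were higher and 11 lower in AAV-mVEGF-C, with a median log2 fold change of 0.079, and the groups did not overlap for 5 higher and 7 lower genes, against 16.8% and 15.2% of all tested genes. Their median was −0.14 without AAV-CTRL 1 and −0.040 without AAV-mVEGF-C 2. *Klrb1b*, an inhibitory relative of *Klrb1c*, was at 25.9 and 28.02 CPM in the controls and 34.7 and 38.5 CPM under AAV-mVEGF-C, a log2 fold change of 0.44 (standard error 0.17; unadjusted p = 0.0428 from edgeR). It was the only gene of that list past the unadjusted threshold. *Slamf7*, a receptor of NK and other leukocytes, was level at 103 to 108 CPM. Among genes chosen after their values had been seen, *Klre1*, a receptor of NK cells, was at 6.08 and 4.85 CPM in the controls and 1.97 and 3.66 CPM under AAV-mVEGF-C (log2 fold change −0.96, unadjusted p = 0.0682 from edgeR). *Gzmm*, granzyme M, was at 2.93 and 1.07 CPM in the controls and 0.639 and 0.819 CPM under AAV-mVEGF-C (log2 fold change −1.46, unadjusted p = 0.0930 from edgeR). It had only 25 to 131 reads per library. The receptor genes *Klrg1* and *Tigit*, also named after their values had been seen, went the other way, with log2 fold changes of 0.58 and 0.49.

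Of 20 other genes of granules and killing, 16 were tested, and 13 of them were lower, with a median of −0.047 that was 0.058 without AAV-CTRL 1, 0.025 without AAV-mVEGF-C 1, −0.16 without AAV-CTRL 2, and −0.13 without AAV-mVEGF-C 2. None of them passed at an unadjusted p under 0.05 in edgeR. The most abundant, *Srgn*, which encodes the granule proteoglycan serglycin and is shared with mast cells and myeloid cells, was at 646 and 348 CPM in the controls and 452 and 510 CPM under AAV-mVEGF-C. The granzymes *Gzmd*, *Gzme*, *Gzmf*, and *Gzmg* had at most 5 reads in any library and were not tested. The 14 adaptor and signaling genes had a median of 0.20, which was 0.083 without AAV-mVEGF-C 2, 0.30 without AAV-mVEGF-C 1, and 0.012 on log2(TPM + 1). Of them, 2 were higher at an unadjusted p under 0.05, as were 1.46% of all tested genes. These were *Cd247*, the zeta chain that T cell and NK receptors signal through (0.49, unadjusted p = 0.0257 from edgeR), and *Sh2d2a*, a T cell adaptor (0.41, unadjusted p = 0.0427 from edgeR). *Tyrobp*, the adaptor DAP12 of activating NK receptors and of myeloid receptors, was at 146 and 145 CPM in the controls and 144 and 191 CPM under AAV-mVEGF-C.

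The 14 other transcription factors of NK and effector cells had a median of 0.16, with 10 higher. That median was 0.34 without AAV-CTRL 2, 0.25 without AAV-mVEGF-C 1, 0.089 without AAV-mVEGF-C 2, and −0.0064 on log2(TPM + 1), where 7 were higher. *Prdm1*, which is also a factor of plasma cells, was the only one past the unadjusted threshold, at 26.4 and 29.8 CPM in the controls and 49.3 and 38.2 CPM under AAV-mVEGF-C (log2 fold change 0.64, unadjusted p = 0.0178 from edgeR). The 18 genes of cytokine receptors, chemokines, and trafficking had a median of 0.095, with 12 higher and none past the unadjusted threshold in edgeR. That median was −0.18 without AAV-CTRL 1, −0.094 without AAV-mVEGF-C 2, 0.28 without AAV-CTRL 2, 0.17 without AAV-mVEGF-C 1, and −0.070 on log2(TPM + 1). *Ccl5*, a chemokine of NK and T cells, was at 44.8 and 58.8 CPM in the controls and 47.4 and 57.8 CPM under AAV-mVEGF-C. Of the ligands of the member receptors, 7 of 11 were in the table and 5 were tested, none past the unadjusted threshold in edgeR. *H2-T23*, which encodes the Qa-1 molecule that CD94 reads, was at 165 and 192 CPM in the controls and 153 and 189 CPM under AAV-mVEGF-C, and *Ulbp1*, a ligand of NKG2D, was at 25.1 and 17.2 CPM in the controls and 19.2 and 19.7 CPM under AAV-mVEGF-C.

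T cells can make the same granules. Of 15 T cell genes, 12 were higher in AAV-mVEGF-C, 4 of them at an unadjusted p under 0.05 and 0 after adjustment, against 1.46% of all tested genes higher at that unadjusted p and 49.6% below 0 in fold change, and the median log2 fold change was 0.25. The median was 0.35 without AAV-CTRL 1 and 0.052 without AAV-CTRL 2. *Trac*, the constant gene of the T cell receptor alpha chain, was at 12.8 and 20.0 CPM in the controls and 32.1 and 28.1 CPM under AAV-mVEGF-C (log2 fold change 0.88, unadjusted p = 0.0149 from edgeR). *Trbc1* was at 29.2 and 35.02 CPM in the controls and 46.4 and 57.7 CPM under AAV-mVEGF-C (log2 fold change 0.70, unadjusted p = 0.0116 from edgeR). *Trbc2*, the other constant gene of the beta chain, was at 31.67 and 31.85 CPM in the controls and 29.83 and 34.59 CPM under AAV-mVEGF-C. The log2 fold change of *Trbc2* was 0.020, and in TPM it was lower without overlap. *Cd3g* and *Cd5* had log2 fold changes of 0.39 and 0.64 (unadjusted p = 0.0440 and 0.0394 from edgeR). *Cd8a*, which marks the T cells that share most of the 10 genes, was at 19.9 and 16.1 CPM in the controls and 16.4 and 17.1 CPM under AAV-mVEGF-C and did not separate the groups. *Cd8a* (log2 fold change −0.10), *Cd8b1* (−0.10), and *Trdc* (−0.12), the constant gene of the T cell receptor delta chain, were the 3 T cell genes below 0, and on log2(TPM + 1) there were 6. *Cd8a*, *Cd8b1*, and *Trdc* were named after their values had been seen. The summed CPM of the T cell genes was 486 and 463 in the controls and 600.4 and 580 under AAV-mVEGF-C.

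Of 10 genes of innate lymphoid cells, 5 were higher and 5 lower. Of them, 2 were higher at an unadjusted p under 0.05 in edgeR, as were 1.46% of all tested genes. *Rora*, a transcription factor of type 2 innate lymphoid cells, was at 115 and 149 CPM in the controls and 179.9 and 179.5 CPM under AAV-mVEGF-C (log2 fold change 0.44, unadjusted p = 0.0481 from edgeR). In TPM, the groups of *Rora* overlapped. Other abundant genes of the list, *Il7r*, *Il1rl1*, and *Areg*, had log2 fold changes of 0.19, −0.095, and −0.032.

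**Figure D4:**
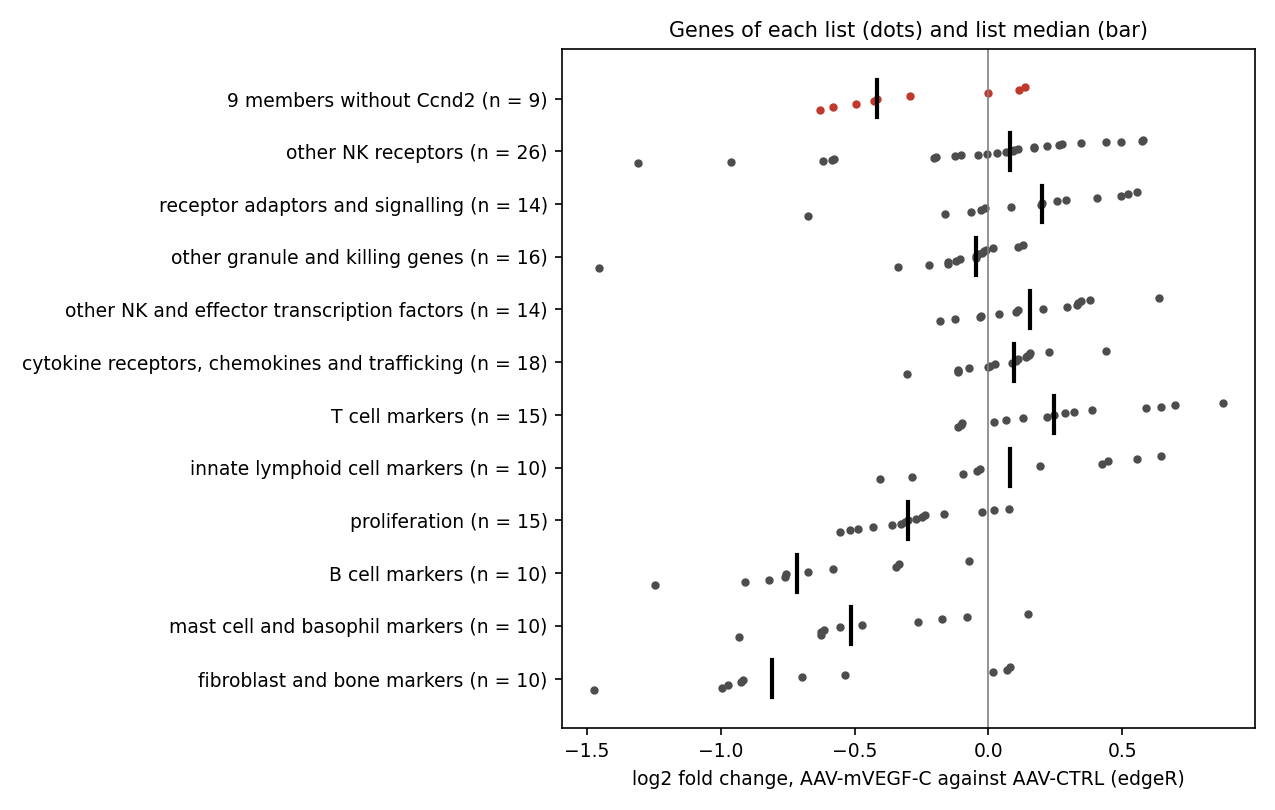
Log2 fold change (x axis, AAV-mVEGF-C against AAV-CTRL, edgeR) of the tested genes of each list shown (dots), with the list median (black bar); the 9 members other than *Ccnd2* are in red. The members have a median of −0.41, between those of the T cell genes at 0.25 and of the fibroblast and bone genes at −0.81.

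Markers of several other cell types lay on the same side of 0 as *Gzma*, *Gzmb*, and *Prf1*. Of 10 mast cell and basophil genes, 9 were lower, 5 of them at an unadjusted p under 0.05, as were 1.18% of all tested genes, with a median of −0.51 (−0.31 without AAV-CTRL 1). Their summed CPM was 2616 and 1851 in the controls and 1668 and 1757 under AAV-mVEGF-C, without overlap, and the mast cell proteases *Cma1* and *Mcpt4* were at 274 to 556 and 268 to 530 CPM, so that mast cells were present in every library. Of 10 fibroblast and bone genes, 7 were lower, 4 of them at an unadjusted p under 0.05, with a median of −0.81 (−0.37 without AAV-CTRL 2 and −0.46 without AAV-mVEGF-C 1) and a summed CPM of 702 and 1138 in the controls and 426 and 628 under AAV-mVEGF-C. All 10 B cell genes were lower, 2 of them at an unadjusted p under 0.05, with a median of −0.72 that was 0.099 without AAV-CTRL 2 and −1.22 without AAV-CTRL 1. All 8 genes of plasmacytoid dendritic cells were lower, with a median of −0.28 that was 0.39 without AAV-CTRL 2, −0.72 without AAV-CTRL 1, and −0.145 without AAV-mVEGF-C 1, and their summed CPM was 241 and 449 in the controls and 281 and 342 under AAV-mVEGF-C. Of 10 endothelial genes, 8 were lower, 1 of them at an unadjusted p under 0.05, with a median of −0.35 (−0.10 without AAV-CTRL 2 and −0.68 without AAV-CTRL 1). The macrophage genes had a median of −0.11, which was 0.028 without AAV-CTRL 2, 0.12 without AAV-mVEGF-C 1, −0.26 without AAV-CTRL 1, and −0.33 without AAV-mVEGF-C 2. The neutrophil genes had one of −0.018, which was 0.65 without AAV-CTRL 1, −0.42 without AAV-CTRL 2, 0.057 without AAV-mVEGF-C 1, and −0.087 without AAV-mVEGF-C 2, with a summed CPM from 12440 to 28460 that was highest in AAV-CTRL 1. No marker in these lists was at 0 in all libraries. The part of these cells and of T cells in the levels of the 10 genes was not tested.

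Around *Ccnd2*, 10 genes of the other D-type cyclins, their kinases, and their inhibitors had a median log2 fold change of 0.0019, with 6 higher, 4 lower, and none past the unadjusted threshold in edgeR. *Ccnd3*, the most abundant of them, was at 247 and 170 CPM in the controls and 189 and 191 CPM under AAV-mVEGF-C. Of 15 proliferation genes, 13 were lower, with a median of −0.30, which was 0.14 without AAV-CTRL 1 and −0.60 without AAV-CTRL 2. *Mki67* was at 920 and 620 CPM in the controls and 853 and 708 CPM under AAV-mVEGF-C. *Ccnd2* thus had the lowest value in AAV-CTRL 1, where *Mki67* and *Ccnd3* had their highest.

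Among 9322 other genes with a mean of at least 10 CPM, those with a library profile nearest to the mean of the 9 members other than *Ccnd2* were *Plod1*, *Itga6*, *Taf12*, *Pithd1*, and *Hspd1*. Their deviations in log2(CPM + 1) from their own means differed from that profile by a root mean square of 0.0029 to 0.016 over the 4 libraries. A difference of at most 0.1 was found for 970 of the 9322 genes, so that with 4 libraries many genes look alike. The genes nearest to *Ccnd2* were *Ring1*, *Slc29a3*, *Fxr2*, *Atp6v0a1*, and *Ipo13*, at 0.011 to 0.016, with 813 genes within 0.1.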

How the data were processed

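RNA from sorted dural CD45+ cells was made into SMARTer stranded total RNA libraries. The authors deposited expected counts (estimated reads per gene, 8.18% of values with decimals, not normalized) and TPM values, which sum to 1000000 per library. Per the labels, the submitters' processing notes name mm10, Trimmomatic, DRAGEN, Picard, and FastQC, without their roles; the annotation is not given in the sources used here. Gene positions were read from GENCODE M21 (GRCm38), which holds 54349 of the 55401 gene identifiers at an equal version.

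Counts were rounded to whole numbers and tested with edgeR 4.0.16 (R 4.3.3) by the quasi-likelihood test, after filterByExpr and TMM scaling at defaults (19806 genes, common dispersion 0.173), with all 4 libraries, no covariate, and Benjamini-Hochberg adjustment over all genes at 0.05. CPM are TMM-scaled. The standard error is the log2 fold change divided by the square root of F. The test was checked on simulated counts. The experiment numbers in the titles were not taken to pair the libraries, since the column names number them differently. The deviations of same-numbered libraries had a correlation of −0.035 over genes. With 2 libraries per group this is a single value, which cannot decide whether they were paired.

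The 10 genes and the 18 other lists (222 entries, 4 not found in the table) were chosen with earlier results of these data known. Named from the other lists were genes with an unadjusted p under 0.05 and, at most, the 3 with the highest mean TPM, besides *Ptprc* and the 5 genes of at least 10 CPM nearest in profile to the 9 members other than *Ccnd2* and to *Ccnd2*. Outside this rule, *Klrc1*, *Klre1*, *Klrg1*, *Tigit*, *Gzmm*, *Cd8a*, *Cd8b1*, *Trdc*, *Cd3e*, *Csf1r*, and the granzymes with few reads were named after their values had been seen. Members had 234 to 1759 reads per library, and *Ccnd2* 7513 to 8265, so that counting error is at most 6.54%, before PCR duplicates. Alternatives were a replicate block (as numbered and crossed), DESeq2 1.42.0, limma 3.58.1 with voom or on log2(TPM + 1) and log2(TPM + 0.1), other scalings and filters, robust fitting, and each library left out. One gene that this rule names is not reported here.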

Additional observations from a re-analysis of the deposited data

How the results depend on the processing

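No member passed an adjusted p under 0.05 under any of the 12 alternatives that kept all libraries, and *Ncr1*, *Klrd1*, *Gzma*, *Gzmb*, *Prf1*, and *Eomes* kept a log2 fold change below 0 in all 12. The median of the 10 members ranged from −0.40 to −0.32 over those 12 and from −0.45 to −0.15 with 1 library left out, and without *Ccnd2* from −0.45 to −0.17 with 1 library left out. With 1 library left out, the single members ranged from −0.71 to −0.25 (*Ncr1*), −0.17 to 0.50 (*Klrb1c*), −0.031 to 0.018 (*Klrk1*), −1.03 to 0.080 (*Klrd1*), −0.73 to −0.17 (*Gzmb*), −0.45 to −0.12 (*Eomes*), −0.017 to 0.25 (*Nkg7*), and −0.12 to 0.32 (*Ccnd2*). On TPM, with pseudocounts of 1 and 0.1, the median of all genes was −0.078 and −0.11, and all 10 members were below 0. The direction turned for *Klrb1c* (−0.13 and −0.15), *Nkg7* (−0.076 and −0.080), and *Ccnd2* (−0.044 and −0.044), which for *Nkg7* and *Ccnd2* lay above that median. *Klrk1*, at −0.0022, was at 0.0024 with RLE size factors, 0.0022 with no scaling factors, 0.017 with at least 10 reads in every library, and 0.0024 in DESeq2, but at −0.28 and −0.29 on TPM, below that median.

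The log2 ratio of the summed members, −0.041 in CPM, was −0.38 in TPM and −0.22 without *Ccnd2*. Genes past an adjusted p of 0.05 numbered 0 in the test reported here (523 unadjusted), 11 with a replicate block on the experiment number, 54 with the crossed replicate block, 72 in DESeq2, 268 with no filter, and 2 to 2058 with 1 library left out. Both block fits left every member uncalled, with the lowest adjusted p at 0.9988 and 0.9993, and *Gzma* had an unadjusted p of 0.0424 from edgeR with the crossed block. Other unadjusted p-values under 0.05 for *Gzma* were 0.0234 with no filter in edgeR, 0.0448 and 0.0439 on TPM in limma, and, in edgeR, 0.00875 without AAV-CTRL 2 and 0.0381 without AAV-mVEGF-C 2. Without AAV-CTRL 1, edgeR gave unadjusted p-values of 0.00518 for *Ncr1*, 0.0260 for *Prf1*, and 0.0355 for *Gzmb*. The cause of these differences was not tested. The medians without *Ccnd2*, the number of members below 0, which stayed at 6 to 10, and the other lists with a library left out were alternatives chosen after seeing the data.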
